A study of Mus musculus with 18 samples.

Results

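The costimulatory and activation surface molecules considered here, through which B cells show activation and address T cells, are *Cd69*, *Cd83*, *Cd80*, *Cd86*, *Icosl*, *Cd274*, *Slamf1* and *Tfrc*. They were chosen by name for their known roles, with earlier results of these data known. All 8 of 8 have a row among the 16545 genes of the deposited expression table. The question was how their RNA levels change when splenic B cells are activated by lipopolysaccharide (LPS, a bacterial cell wall component sensed by B cells through TLR4), and whether loss of the transcription factor ZBTB24 in B cells alters them. Purified splenic B cells were taken for RNA sequencing before LPS (0 h, labelled D0) and after 24 h (D1) and 48 h (D2) of LPS, in 3 control and 3 B-CKO libraries at each time, 18 libraries in all. The B-CKO mice were Zbtb24 loxp/loxp on a C57BL/6 background and carried 1 Cre allele that is active in B cells, where it removes exon 2 of *Zbtb24*. The controls, labelled CON, were littermates with the same Cre allele and wild-type *Zbtb24* according to the study's methods. Each mouse gave 1 replicate, and ages are not given in the labels of these samples. No library of cells cultured without LPS was analysed here, so that effects of LPS and of culture cannot be told apart.

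In T cell help, CD80 and CD86 on a B cell engage CD28 and CTLA-4 on a T cell, ICOSL engages ICOS, and PD-L1, encoded by *Cd274*, engages the inhibitory receptor PD-1. CD69 appears early on activated lymphocytes and holds them in lymphoid tissue by pulling the sphingosine-1-phosphate receptor S1PR1 from the cell surface. CD83 stabilises CD86 and MHC class II on the surface, SLAMF1 binds itself on neighbouring cells, and the transferrin receptor TFRC takes up iron for growing cells. The measurements here are of RNA, and surface protein was not measured in these libraries. The paper separately reports flow cytometry of cultured B cells, in which loss of ZBTB24 did not impair the rise of surface CD69 and CD86.

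The values are FPKM, fragment numbers scaled by the authors to transcript length and library size. Total FPKM per library ranged from 453149 to 563456, and between 13369 and 14112 genes were above 0. The table gives no read counts, so the depth behind a value is unknown. *Cd79a*, a B cell receptor component, was at 642 FPKM or more in every library and *Ms4a1*, which encodes CD20, at 432 FPKM or more, against a summed level of at most 11.1 FPKM for 6 T cell markers. From 0 h to 24 h in control cells, the mean of *Cd79a* went from 2073 to 727 FPKM and that of *Ms4a1* from 539 to 517 FPKM. The 8 myeloid and dendritic markers summed to 6.33 to 9.94 FPKM at 0 h and, at 48 h, to 29.0 to 34.4 FPKM in control and 35.1 to 36.9 FPKM in B-CKO cells, where *Flt3* alone made up 23.2 to 31.9 FPKM. By 48 h, 2 of the 8 had risen and 6 had fallen in both genotypes. The other riser was *Itgam*, which encodes CD11b, from 0.63 to 1.28 FPKM at 0 h to 4.35 to 6.03 FPKM in control and 2.99 to 4.14 FPKM in B-CKO cells at 48 h, while *Lyz2*, a defining myeloid gene, was at no more than 0.22 FPKM there. The part of cells with these markers in the members' changes was not tested. *Zbtb24* itself was at 37.1 to 49.6 FPKM in control and 10.5 to 14.3 FPKM in B-CKO libraries at 0 h. It stayed lower in B-CKO without overlap at both later times, at 10.4 to 11.7 against 15.7 to 18.8 FPKM at 24 h and at 9.23 to 11.3 against 13.4 to 17.1 FPKM at 48 h. Changes were tested with limma on log2(FPKM + 1), with p-values adjusted over all genes of a comparison, and are given as the log2 fold change ± its standard error, with a gene called at an adjusted p under 0.05. For *Zbtb24* the differences between genotypes were -1.78 ± 0.16, -0.64 ± 0.08 and -0.50 ± 0.10 at the 3 times (limma adjusted p = 0.12, 0.059 and 0.27).

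Before LPS, the members differed widely in FPKM, a level that is scaled to transcript length. In control cells at 0 h, *Cd83* had the highest mean, 472 FPKM, followed by *Cd69* at 228, *Icosl* at 131 and *Cd274* at 89.7 FPKM. *Tfrc*, *Cd86* and *Slamf1* followed with 21.9, 20.7 and 12.6 FPKM, and *Cd80* was lowest at 1.10 FPKM. In the 24 h control cells, *Cd83* was still highest at 166 FPKM, whereas *Tfrc* had moved to the second place at 51.3 FPKM. *Cd69*, *Icosl* and *Cd274* had dropped to 24.2, 23.9 and 6.88 FPKM. The plot of FPKM by library shows 6 of the 8 members with their highest group mean before LPS, and only *Cd80* and *Tfrc* with their lowest.

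**Figure D1:**
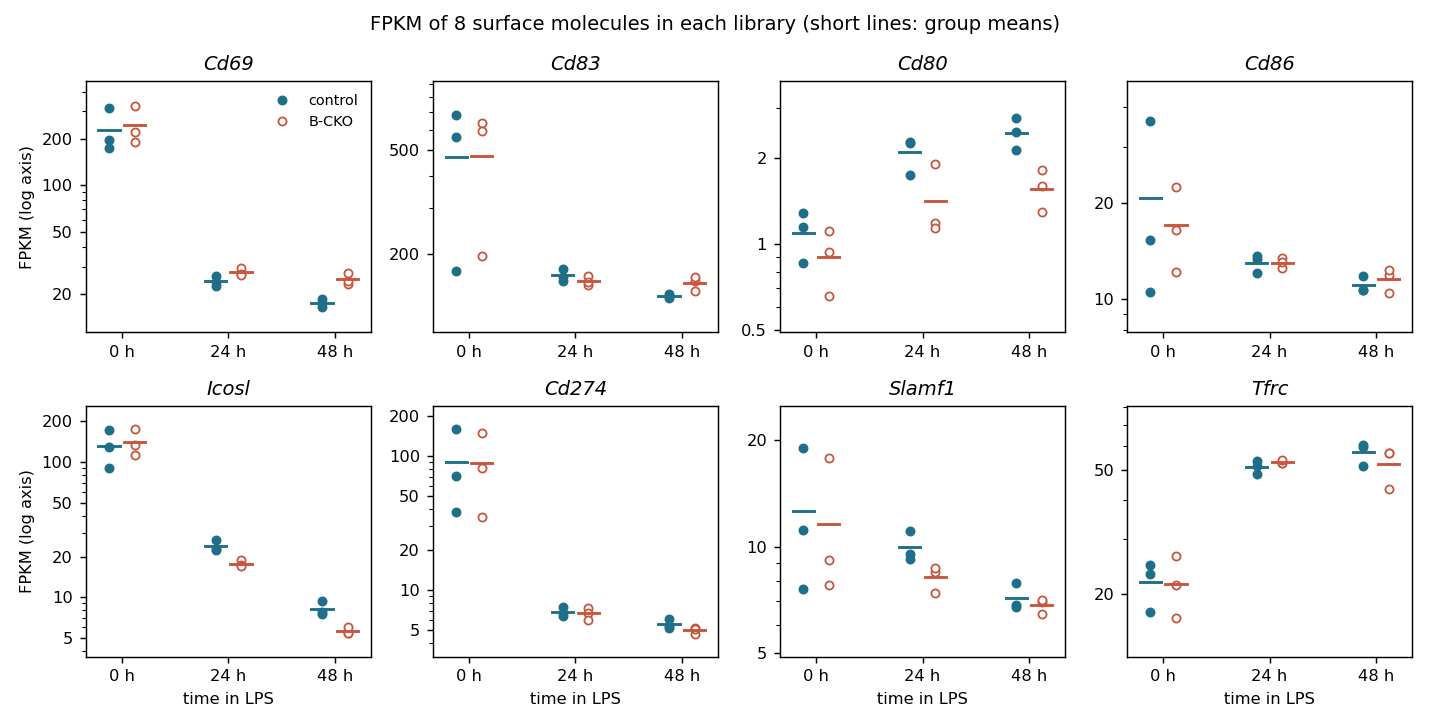
FPKM (log axis) of each of the 8 members against time in LPS, with 1 point for each library, filled for control and open for B-CKO, and short lines at the group means. *Cd69*, *Icosl* and *Cd274* fall from 0 h to 24 h with no overlap between libraries, *Tfrc* rises from 16.8 to 26.6 FPKM at 0 h to at least 43.4 FPKM in LPS, and the 0 h libraries are more spread than the later ones.

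*Cd69* (chr6:129267324-129275375, GRCm38) is the classical early activation marker, and here it was highest in cells that had not yet received LPS. The control libraries held 174, 315 and 195 FPKM at 0 h, 25.9, 23.97 and 22.5 FPKM at 24 h, and 16.5, 17.4 and 18.5 FPKM at 48 h. The B-CKO libraries held 221, 324 and 191 FPKM at 0 h, 29.5, 26.8 and 26.6 FPKM at 24 h, and 23.3, 24.4 and 27.2 FPKM at 48 h. All libraries in LPS were thus below all libraries before it. The mean fell 9.44-fold by 24 h in control cells (log2 fold change -3.14 ± 0.22 SE, limma adjusted p = 5.9e-05) and 8.86-fold in B-CKO cells (-3.07 ± 0.19, limma adjusted p = 2.5e-05). In control cells *Cd69* fell further between 24 h and 48 h (-0.44 ± 0.06, limma adjusted p = 0.0015). In B-CKO cells the corresponding change was -0.14 ± 0.07 (limma adjusted p = 0.13).

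*Cd83* (chr13:43785112-43803133) marks activated B cells and mature dendritic cells. At 0 h it was at 172, 682 and 563 FPKM in control and at 197, 635 and 595 FPKM in B-CKO libraries, so that replicate 1 was far below the others in both genotypes and the highest library held 3.97-fold and 3.22-fold the lowest. At 24 h the libraries narrowed to 158 to 175 FPKM in control and 152 to 165 FPKM in B-CKO cells. At 48 h they lay between 136 and 140 FPKM and between 144 and 163 FPKM. The low 0 h replicate 1 overlapped the 24 h range in control cells only. The change to 24 h was -1.29 ± 0.50 in control cells (limma adjusted p = 0.069). It fell in B-CKO cells (-1.41 ± 0.44, limma adjusted p = 0.031) and by 48 h in both genotypes (-1.54 ± 0.49 and -1.44 ± 0.43, limma adjusted p = 0.035 and 0.027). These 3 calls against 0 h were lost when single libraries were left out, with the fold change still negative. In control cells at 48 h it was -1.17 to -1.56, with a limma adjusted p of 0.088 to 0.11, without replicate 2 or 3 of 0 h or without any 1 of the 48 h libraries. With median ratio scaling the limma adjusted p was 0.050. In B-CKO cells, leaving out replicate 2 or 3 of 0 h or any 1 library of the later time gave -1.11 to -1.44 for 24 h and -1.14 to -1.48 for 48 h, with limma adjusted p of 0.075 to 0.10 and 0.071 to 0.091. Without control replicate 1 of 0 h, the change to 24 h in control cells was -1.90, with a limma adjusted p of 9.0e-05, and it also passed the test in all libraries without genes averaging under 1 FPKM (0.040) or with TPM scaling (0.043).

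*Cd80* (chr16:38457430-38495958), a ligand of CD28 and CTLA-4, was the scarcest member and one of the pair that rose. Control libraries held 1.15, 0.86 and 1.28 FPKM at 0 h, 2.26, 2.28 and 1.74 FPKM at 24 h, and 2.13, 2.46 and 2.77 FPKM at 48 h. B-CKO libraries held 0.66, 1.11 and 0.94 FPKM at 0 h, 1.18, 1.91 and 1.14 FPKM at 24 h, and 1.59, 1.81 and 1.29 FPKM at 48 h. In control cells the mean rose 1.91-fold by 24 h and 2.24-fold by 48 h (log2 of FPKM + 1 changed by 0.56 ± 0.12 and 0.72 ± 0.12, limma adjusted p = 0.0067 and 0.0021). In B-CKO cells the change was 0.33 ± 0.15 at 24 h (limma adjusted p = 0.10) and 0.43 ± 0.12 at 48 h, where it passed the test (limma adjusted p = 0.021). That B-CKO call at 48 h was lost without B-CKO replicate 1 or 2 of 48 h, with limma adjusted p = 0.064 and 0.068, and when values were rescaled to TPM, with 0.096.

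*Cd86* (chr16:36568956-36666158), the partner of CD80 in binding CD28, showed its widest spread before LPS, from 10.5 to 36.2 FPKM in control and from 12.2 to 22.4 FPKM in B-CKO libraries. At 24 h the 6 libraries of both genotypes lay between 12.1 and 13.7 FPKM, and at 48 h between 10.5 and 12.4 FPKM. Its change from 0 h did not pass the test at 24 h or 48 h in either genotype, with estimates of -0.33 to -0.66 and limma adjusted p of 0.087 to 0.40. From 24 h to 48 h it fell in control cells (-0.21 ± 0.06, limma adjusted p = 0.031). This small drop was lost without control replicate 1 or 2 of 24 h or replicate 1 or 2 of 48 h, with limma adjusted p between 0.088 and 0.10, and with median ratio scaling, with 0.060. From 0 h to 48 h, *Cd86* passed the test without replicate 1 of 0 h, in control (-1.03, limma adjusted p = 0.048) and in B-CKO cells (-0.69, limma adjusted p = 0.010), and in B-CKO cells also at 24 h (-0.53, limma adjusted p = 0.017).

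*Icosl* (chr10:78069368-78079525), whose product engages ICOS on follicular helper T cells, had the most negative log2 fold change by 48 h in both genotypes. Control libraries held 172, 129 and 90.8 FPKM at 0 h, 26.5, 22.6 and 22.5 FPKM at 24 h, and 9.41, 7.48 and 7.76 FPKM at 48 h. B-CKO libraries held 175, 133 and 112 FPKM at 0 h, 18.7, 17.3 and 17.0 FPKM at 24 h, and 5.41, 5.45 and 6.08 FPKM at 48 h. Each step lowered every library below every library of the step before. By 48 h *Icosl* had fallen 15.9-fold in control (-3.79 ± 0.23, limma adjusted p = 3.1e-05) and 24.8-fold in B-CKO cells (-4.38 ± 0.16, limma adjusted p = 5.2e-06). As a ratio of mean FPKM, *Cd274* fell about as far in control cells, 16.1-fold. Between 24 h and 48 h *Icosl* fell by 1.43 ± 0.10 on the log2 scale in control and by 1.49 ± 0.06 in B-CKO cells (limma adjusted p = 8.5e-05 and 1.3e-05), the largest member change over that interval.

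Promoter sequences are shown for *Icosl* and *Cd80*, 2 members that moved in opposite directions with LPS and whose B-CKO means lay under those of control cells in LPS. They are from RefSeq on GRCm38.p6, plus strand, and hold no base of an exon annotated in GENCODE. The *Cd80* and *Cd274* start sites used lie downstream of the outermost start of the gene. A promoter was held for 5 of the 8 members. The capitals mark matches on either strand to a loose NF-kB site, written as GGG, any 5 bases and CC, or to TGANTCA, the AP-1 site bound by FOS and JUN proteins.
*Icosl*, chr10:78069118-78069301: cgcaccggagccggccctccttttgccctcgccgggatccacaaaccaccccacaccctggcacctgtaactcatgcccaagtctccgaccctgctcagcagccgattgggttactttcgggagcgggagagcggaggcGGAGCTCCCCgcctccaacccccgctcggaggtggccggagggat
*Cd80*, chr16:38458683-38458932: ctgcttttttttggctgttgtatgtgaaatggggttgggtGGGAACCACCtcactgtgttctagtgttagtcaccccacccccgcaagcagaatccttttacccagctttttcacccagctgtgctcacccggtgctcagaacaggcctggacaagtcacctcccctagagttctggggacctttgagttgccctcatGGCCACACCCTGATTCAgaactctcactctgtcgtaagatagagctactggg
Over the whole 250 bases before the start site, *Icosl* had 2 matches to the NF-kB letters, 1 of them in the stretch shown, and *Cd80* had 2, while 45.8% of 32817 promoter windows of the same length had at least 1. *Cd80* had 1 match to the AP-1 letters, 42 bases before the start site and next to an NF-kB match, and 6.75% of all windows had any. *Cd274* and *Slamf1* had 0 matches to either in this window, and the *Tfrc* windows had matches to the NF-kB letters only. A match is a run of letters and no measured site, and binding was not measured in these libraries.

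*Cd274* (chr19:29362107-29388095) encodes PD-L1. At 0 h it was at 38.5, 71.1 and 159 FPKM in control and at 34.9, 81.5 and 149 FPKM in B-CKO libraries, so that the highest library held 4.14-fold and 4.27-fold the lowest. In LPS, all 12 libraries lay between 4.74 and 7.52 FPKM. It fell by 24 h in control (-3.29 ± 0.48, limma adjusted p = 0.0013) and in B-CKO cells (-3.31 ± 0.48, limma adjusted p = 0.0012), and further by 48 h in B-CKO cells (-0.35 ± 0.08, limma adjusted p = 0.012). The drop from 24 h to 48 h in control cells (-0.26 ± 0.08, limma adjusted p = 0.040) was lost without control replicate 1 or 2 of 24 h or replicate 1 or 3 of 48 h, with limma adjusted p between 0.089 and 0.12, and with median ratio scaling, with 0.057.

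*Slamf1* (chr1:171767131-171801184), a self-ligand of the SLAM family, was at 19.0, 11.1 and 7.60 FPKM in control and at 17.8, 9.14 and 7.80 FPKM in B-CKO libraries at 0 h. At 24 h it was at 9.23 to 11.1 FPKM in control and 7.38 to 8.72 FPKM in B-CKO cells, and at 48 h at 6.74 to 7.90 and 6.43 to 7.05 FPKM. Its change from 0 h did not pass the test in either genotype, with estimates from -0.23 to -0.65. Without replicate 3 of 0 h, the change to 48 h passed it in control (-0.94, limma adjusted p = 0.016) and B-CKO cells (-0.82, limma adjusted p = 0.047). From 24 h to 48 h *Slamf1* fell in control (-0.43 ± 0.09, limma adjusted p = 0.0071) and in B-CKO cells (-0.23 ± 0.08, limma adjusted p = 0.046). The B-CKO call was lost without replicate 1 or 3 of 24 h or any 1 of the 48 h libraries, with limma adjusted p between 0.062 and 0.14, and with median ratio scaling, with 0.075.

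*Tfrc* (chr16:32608896-32632794), the iron importer of growing cells, rose. It was at 17.5, 23.2 and 24.9 FPKM in control and at 16.8, 26.6 and 21.4 FPKM in B-CKO libraries at 0 h, against 48.6 to 53.4 and 52.6 to 54.1 FPKM at 24 h. At 48 h the control libraries held 60.5, 59.3 and 51.6 FPKM and the B-CKO libraries 56.7, 56.9 and 43.4 FPKM. No library in LPS overlapped with those before it. The rise to 24 h was 2.34-fold in control (1.21 ± 0.13, limma adjusted p = 3.7e-04) and 2.46-fold in B-CKO cells (1.29 ± 0.15, limma adjusted p = 4.6e-04). From 24 h to 48 h the change was 0.15 ± 0.07 in control and -0.03 ± 0.10 in B-CKO cells, and neither passed the test. Without replicate 3 of 48 h, the low library of both genotypes, it was 0.22 in control (limma adjusted p = 0.015) and 0.09 in B-CKO cells (limma adjusted p = 0.043).

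**Figure D2:**
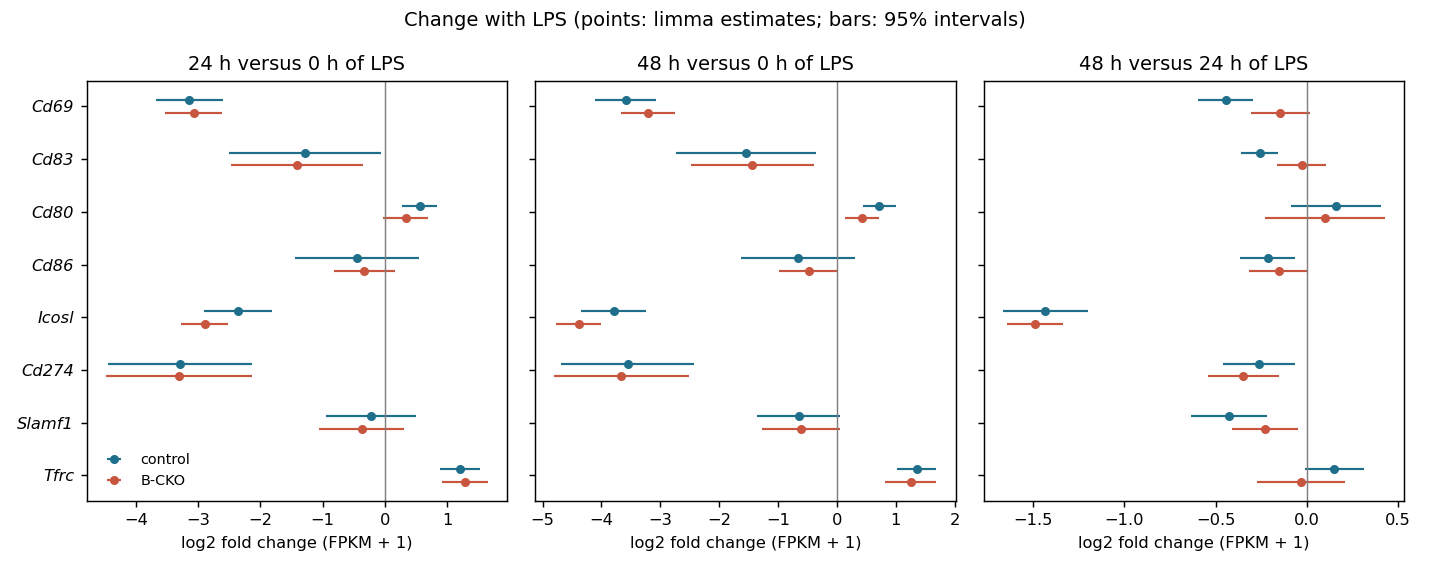
Change with LPS of the 8 members, as the log2 fold change of FPKM + 1 on the horizontal axis, with limma estimates as points and 95% intervals as bars, for control and B-CKO cells in each of the 3 time comparisons. *Cd69*, *Icosl* and *Cd274* lie far below 0 and *Tfrc* above 0 against 0 h in both genotypes, and from 24 h to 48 h only *Icosl* moves by more than 1.

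In all, 2 members rose and 3 fell by 24 h in control cells, where 26.7% of 15531 genes rose and 30.7% fell. By 48 h, 2 rose and 4 fell, against 26.5% and 30.3% of all genes tested. From 24 h to 48 h, 0 rose and 6 fell, against 20.1% and 24.8% of all genes tested. In B-CKO cells 1 rose and 4 fell by 24 h, against 27.5% and 32.3% of all genes. By 48 h 2 rose and 4 fell, against 27.0% and 30.7%, and from 24 h to 48 h 0 rose and 3 fell, against 21.7% and 24%. The median change over the members by 24 h was -0.87 in control and -0.89 in B-CKO cells, beside a median near 0 (-0.02 in both) over all genes. The members were chosen by name, with earlier results of these data known, and are too few to be read as a rate against these shares.

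The 0 h libraries differed among themselves by replicate number, in an order that both genotypes shared for 5 of the 8 members. *Cd274* and *Cd86* were lowest in replicate 1 and highest in replicate 3 of both genotypes, whereas *Icosl* and *Slamf1* were highest in replicate 1 and lowest in replicate 3 of both. *Cd83* was lowest in replicate 1 and highest in replicate 2 of both. For *Tfrc* only the lowest replicate (1) and for *Cd69* only the highest (2) were shared, and *Cd80* had its replicate 2 lowest in control and highest in B-CKO cells. Across the 6 libraries of 0 h, *Icosl* and *Cd274* had a Pearson correlation of -0.97, and *Icosl* and *Slamf1* one of 0.93, given as a description because libraries of the same number were alike. What a number shared by both genotypes stands for is not given in the sources used here, and the part of isolation, mouse or day in the spread at 0 h was not tested.

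**Figure D3:**
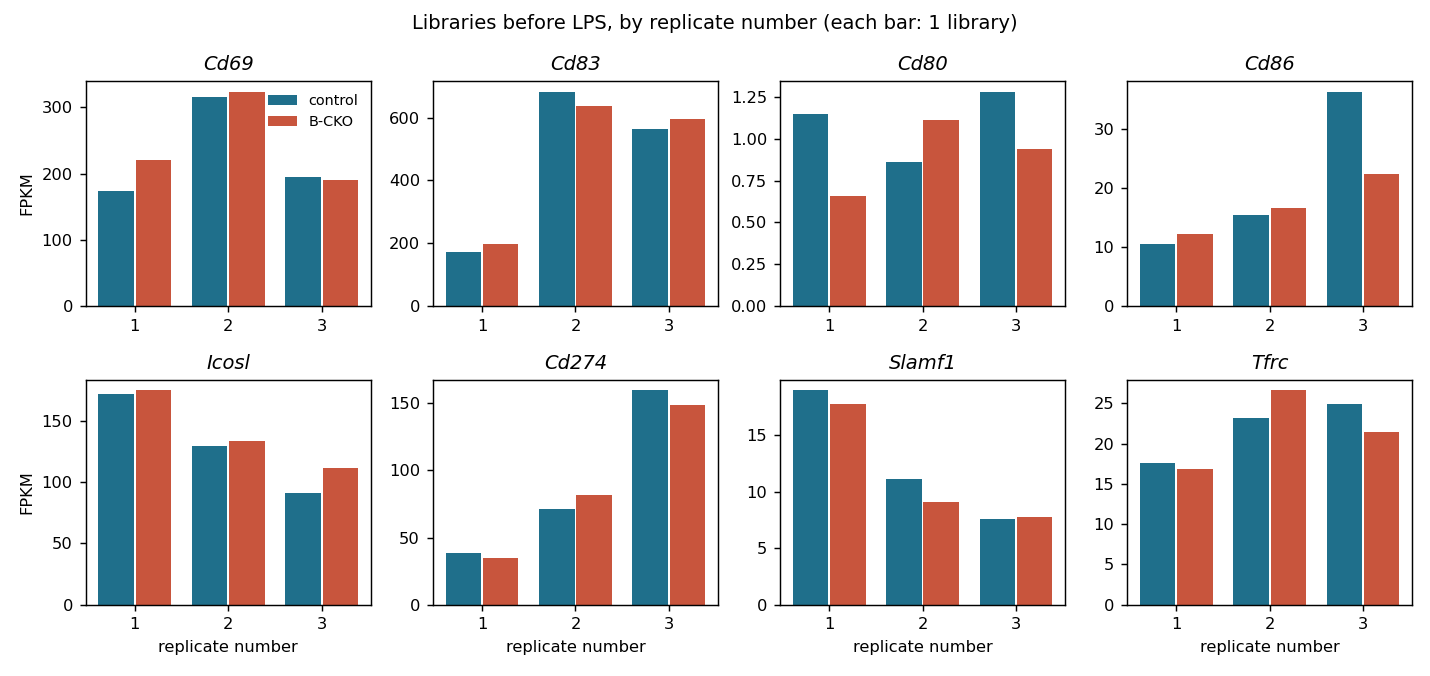
FPKM of the 8 members in the 6 libraries before LPS, by replicate number, with 1 bar for each library of control and B-CKO cells. Bars of the same number are alike across genotypes for most members: *Cd83* is low in both libraries numbered 1 (172 and 197 FPKM), and *Cd274* is highest in both libraries numbered 3 (159 and 149 FPKM).

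Immediate early genes, which are transcribed within minutes of many stimuli, were also high at 0 h. The 10 listed genes summed to 3425 to 5087 FPKM at 0 h and to 189 to 331 FPKM in LPS. All 10 fell by 24 h in control cells (median change -3.97). Among them, *Fos* went from 344 to 444 FPKM to 0.78 to 1.63 FPKM (-7.55 ± 0.17, limma adjusted p = 5.0e-06). *Nr4a1*, a target of antigen receptor signalling, went from 604 to 1203 FPKM to 16.8 to 17.7 FPKM (-5.61 ± 0.24, limma adjusted p = 1.1e-05). *Jun* and *Dusp1* also fell, with changes of -4.06 ± 0.12 and -5.30 ± 0.21 (limma adjusted p = 5.9e-06 and 9.1e-06). Among the 0 h libraries they had no common order. *Atf3*, *Fosb* and *Nr4a1* were lowest in replicate 1 of both genotypes, like *Cd83*, whereas *Egr1* and *Ier2* were highest in replicate 1 and lowest in replicate 3 of both, opposite to *Cd274*. *Atf3*, *Egr1* and *Ier2* are named here after their values were seen. Their part in the high 0 h values of the members was not tested. Among the 9996 other genes that averaged 1 FPKM or more, the nearest to *Cd69* over the 18 libraries was the immediate early gene *Fosb* (Pearson r of log2(FPKM + 1) 0.991), followed by *Ppp1r15a* (0.989) and *Rnf19b* (0.988). Within the 12 libraries in LPS these correlations with *Cd69* were 0.375, 0.763 and 0.768. *Cd83* was most like *Coq10b* (0.979), *Tnfaip3* (0.977), a target and inhibitor of NF-kB signalling, and *Egln2* (0.977), with 0.393, 0.654 and 0.358 within LPS.

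For the other members the likeness within LPS ranged from close to weak. *Icosl* was most like *Fcmr* (0.996), the receptor for IgM, *Ell3* (0.996) and *Ddx5* (0.996), and within the 12 libraries in LPS these correlations were still 0.984, 0.986 and 0.973. *Cd274* was most like *Tgoln1* (0.998), *Tgif2* (0.995) and *Zbtb21* (0.995), with 0.910, 0.456 and 0.789 within LPS. *Slamf1* was nearest to *Nagk* (0.961), *AI837181* (0.949) and *Rab5b* (0.945), with 0.845 to 0.863 within LPS. *Cd86* was nearest to *Rragc* (0.953), *Iqcb1* (0.944) and *Rab5a* (0.931), and within LPS these were 0.418, 0.356 and 0.583. *Tfrc* was nearest to *Morf4l2* (0.988), *Msh6* (0.983), a DNA mismatch repair gene, and *Tex30* (0.982), with 0.614, 0.494 and 0.205 within LPS. *Cd80* had the least close neighbours, *Nudt4* (0.859), *Pdcd1* (0.852) and *Cdca7* (0.842), with 0.690 to 0.724 within LPS. The 18 libraries share 3 time points and 2 genotypes, and these values describe a common pattern over both rather than a relation between genes.

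The relatives of the members moved in several ways, and the counts for these short lists stand beside the 26.7% of all genes that rose and 30.7% that fell by 24 h in control cells. Of the other B7 family genes measured, 3 of 3 fell by 24 h in control cells, namely *Pdcd1lg2*, which encodes the other PD-1 ligand PD-L2 (-1.62 ± 0.17), *Vsir* (-1.15 ± 0.21) and *Cd276* (-0.71 ± 0.13), with limma adjusted p of at most 0.0037. *Pdcd1lg2* went from 6.13 to 9.56 FPKM at 0 h to 1.55 to 1.75 FPKM. *Vsir* was back at 5.43 to 8.19 FPKM at 48 h. Of 8 other SLAM family genes, 0 rose and 3 fell, among them *Cd84* (-1.06 ± 0.10, limma adjusted p = 1.8e-04). Of 7 other activation markers, 3 rose and 0 fell by 24 h in control cells, with *Slc7a5*, an amino acid transporter chain of CD98, from 12.1 to 22.9 FPKM to 80.1 to 86.4 FPKM (2.31 ± 0.21, limma adjusted p = 1.8e-04) and *Il2ra*, the IL-2 receptor alpha chain CD25, from 3.41 to 3.80 FPKM to 9.37 to 11.3 FPKM (1.31 ± 0.10, limma adjusted p = 9.5e-05). The third was *Cd44* (0.78 ± 0.18, limma adjusted p = 0.011). TNF family ligands were scarce, with a summed level of at most 5.53 FPKM for 5 genes, and 2 of 5 rose by 24 h, neither of them above 0.27 FPKM in control cells at that time.

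Of 6 listed genes whose products act on the members' proteins, 2 rose and 4 fell by 24 h in control cells, too few to be read against the same shares. *S1pr1*, the receptor that CD69 removes from the surface, was at 148 to 216 FPKM at 0 h and at 8.57 to 9.60 FPKM at 24 h (-4.16 ± 0.14, limma adjusted p = 6.5e-06). *Marchf1*, a ubiquitin ligase that removes CD86 and MHC class II from the surface, went from 49.8 to 57.9 FPKM to 8.59 to 10.99 FPKM (-2.41 ± 0.11, limma adjusted p = 1.2e-05). *Cmtm6*, which protects PD-L1 from degradation, and *Adam10*, a protease that sheds surface proteins including ICOSL, fell less, by 0.67 ± 0.10 and 0.43 ± 0.05 on the log2 scale (limma adjusted p = 0.0015 and 6.7e-04). Around *Tfrc*, 1 of 11 genes of iron uptake and storage rose and 4 fell. The gene that rose was *Aco1* (0.58 ± 0.12, limma adjusted p = 0.0054), which encodes an iron regulatory protein that stabilises *Tfrc* mRNA and is named here after its values were seen. The ferritin heavy chain gene *Fth1* went from 985 to 1255 FPKM to 593 to 629 FPKM (-0.92 ± 0.11, limma adjusted p = 4.8e-04), and the mitochondrial iron importer *Slc25a37* fell by 1.79 ± 0.15 (limma adjusted p = 1.2e-04). Of the 4 T cell counter-receptors, *Pdcd1*, which encodes PD-1, rose in control B cells from 0.10 to 0.13 FPKM to 1.33 to 1.49 FPKM (1.11 ± 0.04, limma adjusted p = 9.3e-06), while *Cd28*, *Icos* and *Ctla4* fell. The T cell markers fell with them, 6 of 6 by 24 h in control cells (median change -0.73), and their sum went from 5.87 to 11.1 FPKM to 1.86 to 2.04 FPKM at 24 h and 1.27 to 1.73 FPKM at 48 h. Their part in these changes was not tested. *Ctla4* was at 1.30 to 9.97 FPKM at 0 h, 0.45 to 0.78 FPKM at 24 h and 5.55 to 8.25 FPKM at 48 h in control cells.

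Against this background of large changes in LPS, differences between B-CKO and control cells were small. None of the 8 members was called at an adjusted p under 0.05 by limma at 0 h, 24 h or 48 h, where 0.00%, 0.0993% and 0.0460% of all genes were called. The deleted gene *Zbtb24* was not called either (limma adjusted p = 0.12, 0.059 and 0.27). A missing call therefore does not show that a difference is absent. At 0 h, 0 of 8 members had an unadjusted p under 0.05 (2.00% of all genes) and 0 were apart by genotype (3.87% of all genes), with estimates between -0.14 and 0.12. The 95% intervals at 0 h were wide for *Cd83* (-1.54 to 1.65) and *Cd274* (-1.63 to 1.6), whose libraries differed by replicate number, and narrower for *Cd80* (-0.44 to 0.16) and *Tfrc* (-0.51 to 0.46). With the replicate number as a block, which pairs the 0 h libraries in these data, they were -0.14 to 0.26 for *Cd83* and -0.23 to 0.20 for *Cd274*. *Icosl* was higher in B-CKO cells in 3 of 3 pairs, with a difference of 0.12, which was -0.11 without control replicate 3 and -0.05 without B-CKO replicate 1, and a blocked interval of -0.07 to 0.31 (limma adjusted p = 0.90).

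At 24 h, 4 of 8 members had an unadjusted p under 0.05, against 16.3% of all genes. In 3 of 8 the libraries of the genotypes did not overlap, against 20.1% of all genes. The few members were chosen with earlier results of these data known, so their counts in LPS are not read as an excess over these shares. *Icosl* was at 17.0 to 18.7 FPKM in B-CKO and 22.5 to 26.5 FPKM in control cells, a mean of 74.0% of control (-0.41 ± 0.07, limma adjusted p = 0.083). *Slamf1*, at 7.38 to 8.72 against 9.23 to 11.1 FPKM, was also lower without overlap (-0.25 ± 0.08, limma adjusted p = 0.21). *Cd80* was lower with overlap, at a mean of 67.4% of control (-0.37 ± 0.14, limma adjusted p = 0.25). *Cd69* was higher without overlap, at 26.6 to 29.5 against 22.5 to 25.9 FPKM (0.19 ± 0.06, limma adjusted p = 0.20). The other 4 members had estimates between -0.07 and 0.05, with 95% intervals inside -0.23 to 0.16.

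At 48 h, 4 of 8 members again had an unadjusted p under 0.05, against 7.71% of all genes, and the same 4 did not overlap between genotypes, against 11.1% of all genes. *Cd69* was at 23.3 to 27.2 FPKM in B-CKO and 16.5 to 18.5 FPKM in control cells, a 1.43-fold higher mean (0.49 ± 0.07, limma adjusted p = 0.16). *Cd83* was 1.12-fold higher, at 144 to 163 against 136 to 140 FPKM (0.16 ± 0.05, limma adjusted p = 0.48). *Icosl* was at 5.41 to 6.08 against 7.48 to 9.41 FPKM, 68.7% of the control mean (-0.47 ± 0.10, limma adjusted p = 0.27), and *Cd80* at 1.29 to 1.81 against 2.13 to 2.77 FPKM, 63.7% (-0.43 ± 0.11, limma adjusted p = 0.37). The direction for *Cd69*, *Icosl* and *Cd80* was therefore the same at 24 h and 48 h. The libraries of these times share replicate numbers and may come from the same mice, so that they are not taken as independent. With 3 libraries against 3, an exact permutation test of a single gene cannot go below p = 0.10, so that the lack of overlap is the most such a test can show.

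**Figure D4:**
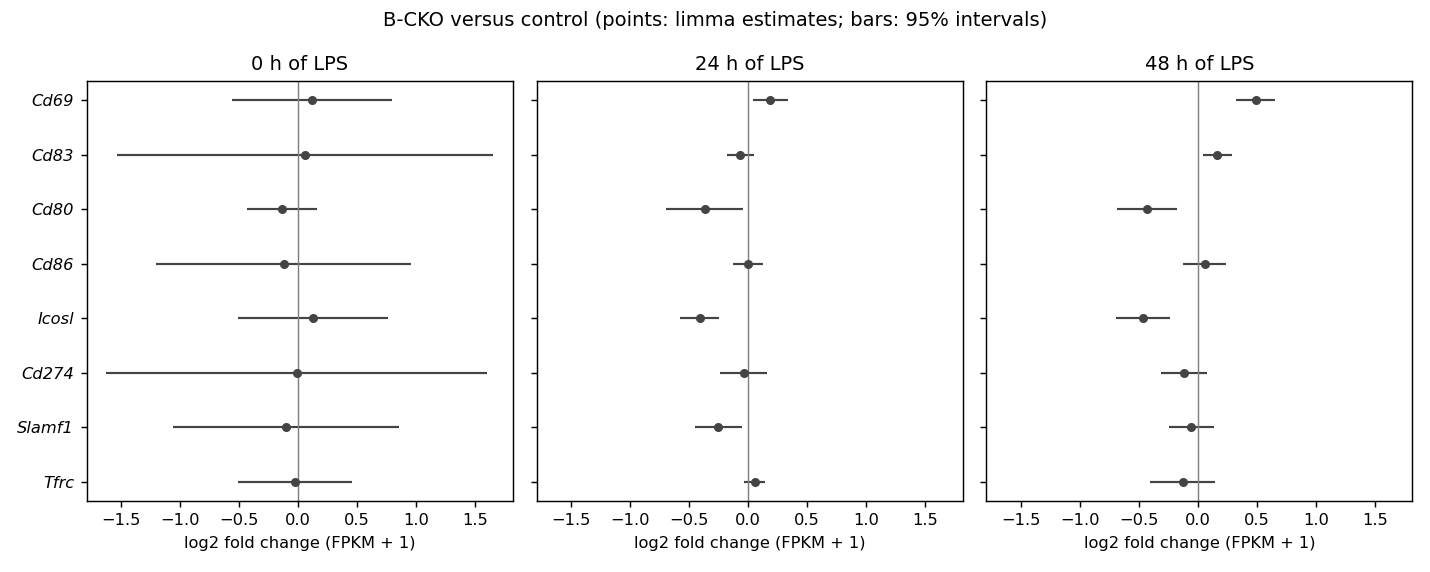
Difference between B-CKO and control cells for the 8 members, as the log2 fold change of FPKM + 1 on the horizontal axis, with limma estimates as points and 95% intervals as bars, at 0 h, 24 h and 48 h of LPS. Intervals include 0 for all members at 0 h, and at 48 h they lie above 0 for *Cd69* and *Cd83* and below 0 for *Cd80* and *Icosl*, none of which passed the adjusted test.

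Some of these calls depended on which genes were tested. When genes averaging under 1 FPKM were left out, *Icosl* at 24 h (limma adjusted p = 0.015) and *Cd69* at 48 h (limma adjusted p = 0.022) passed the test, with unchanged estimates.

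Whether the response to LPS differed between genotypes was tested as the difference of the changes over the 12 libraries of a pair of times. No member was called for any of the 3 pairs, where 0.00% of all genes were called in each. From 0 h to 24 h and from 0 h to 48 h, 0 of 8 members had an unadjusted p under 0.05, against 2.89% and 2.60% of all genes. The estimates for *Icosl*, -0.53 ± 0.30 to 24 h and -0.59 ± 0.30 to 48 h, were the most negative, with 95% intervals of -1.20 to 0.13 and -1.26 to 0.08. With genotypes paired by replicate number within each time, a fit added after seeing the data, the intervals for *Icosl* were -0.73 to -0.33 and -0.89 to -0.29 (limma adjusted p = 0.34 and 0.59), and that for *Cd69* to 48 h was 0.13 to 0.62 (limma adjusted p = 0.69). The numbers did not pass the check of pairing, described below, at 24 h or 48 h. From 24 h to 48 h, 2 of 8 members had an unadjusted p under 0.05, against 7.31% of all genes. The change of *Cd69* was less negative in B-CKO cells by 0.30 ± 0.10 (limma adjusted p = 0.60), and that of *Cd83* by 0.23 ± 0.07 (limma adjusted p = 0.60). Both had fallen between 24 h and 48 h in control cells.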

How the data were processed

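Purified splenic B cells of control and B-CKO mice were sequenced by the authors with paired reads, in 3 libraries of each genotype at 0 h, 24 h and 48 h of LPS. Per the study's methods, reads were mapped to mm10 with bowtie2 and abundance was estimated with Cufflinks and RSEM, and the submitters' processing notes also name BWA and DESeq2, with versions not given in the sources used here. The authors deposited FPKM values with 2 decimals for 16545 genes by NCBI gene ID, of which 16512 were matched to RefSeq symbols on GRCm38. FPKM are no counts, so depth is unknown and DESeq2, which needs counts, was not used here.

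From these values log2(FPKM + 1) was tested with limma 3.58.1 (R 4.3.3, lmFit and eBayes with a trend) across all genes above 0 in any library of a comparison, in fits of 6 libraries or, for genotype differences in a change, of 12. P-values are two-sided and were adjusted over all genes tested after Benjamini and Hochberg, and genes under 0.05 were called. Fold changes on this scale understate changes of low genes such as *Cd80*. The scripts were tested on simulated data. The members and gene lists were chosen with earlier results of these data known.

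Named genes are the 8 members, *Zbtb24*, the 3 genes most correlated with each member, and for each list up to 4 genes with the smallest p in control cells from 0 h to 24 h or any gene called between genotypes. *Cd79a*, *Ms4a1* and *Lyz2* are named as cell type markers, and genes outside the rule are marked in the text. A gene that this rule names, and what rests on its values, is not reported here. Genotype changes are given singly for members with an unadjusted p under 0.05 or no overlap. Alternatives were a pseudocount of 0.1, a mean of at least 1 FPKM, TPM scaling, median ratio scaling, the replicate number as a block and leaving out each library. The block together with the 1 FPKM filter, and a block of the genotypes within each time for changes from 0 h, were added after seeing the data.

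As a check of pairing, deviations from the group means were correlated across genes between control and B-CKO libraries of the same number. The correlations were 0.43 to 0.82 at 0 h, 0.066 to 0.15 at 24 h and -0.049 to 0.18 at 48 h. Numbers were taken as pairing where every same-number correlation was over 0.1, which held at 0 h only. At 24 h the same-number correlations were weak but above those of other numbers, at most 0.0022. Across days within a genotype they were -0.072 to 0.16, and no pair of days met the cut-off. From 24 h to 48 h in B-CKO cells they were 0.092 to 0.16, against a mean of -0.059 for other numbers. The pairing at 0 h comes from the data, not from the labels.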

Additional observations from a re-analysis of the deposited data

How the results depend on the processing

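Leaving out genes averaging under 1 FPKM gave 1 member called between genotypes at 24 h (*Icosl*) and 1 at 48 h (*Cd69*) instead of 0, and over all genes 2 calls instead of 0 at 0 h, 388 instead of 15 at 24 h and 29 instead of 7 at 48 h. A pseudocount of 0.1 gave 46 genes at 24 h. The replicate block gave 5 genes at 24 h and 3 at 48 h, and called 0 members at either time or at 0 h. The block with the 1 FPKM filter was added after seeing the data, and the numbers did not pass the check of pairing at 24 h or 48 h. It gave 3 members at 24 h (*Cd69*, *Icosl* and *Slamf1*, limma adjusted p = 0.026, 0.0044 and 0.041) and 2 at 48 h (*Cd69* and *Icosl*, 0.0020 and 0.033). Over all genes it gave 22, 704 and 116 at 0 h, 24 h and 48 h. At 48 h the 7 genes called were 1 higher and 6 lower, and with median ratio scaling 2 higher and 5 lower. For the genotype difference in a change, median ratio scaling gave 1 gene from 0 h to 48 h and the block with the filter 2 genes from 24 h to 48 h, against 0 in each. The cause of these shifts was not tested.

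Within a genotype over time, where the numbers were not shown to pair libraries, the replicate block ended the calls of *Cd86* (limma adjusted p = 0.089) and *Cd274* (0.077) from 24 h to 48 h in control cells and of *Slamf1* in B-CKO cells (0.078), and added *Cd80* at 24 h (0.037) and *Cd86* at 48 h (0.042) against 0 h in B-CKO cells.

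Leaving out each library in turn, the members called ranged from 5 to 6 (0 h to 24 h), 5 to 7 (0 h to 48 h) and 4 to 6 (24 h to 48 h) in control cells and from 4 to 6, 4 to 7 and 2 to 4 in B-CKO cells, and were 0 in each genotype comparison. All genes called between genotypes ranged from 0 to 1 at 0 h, 5 to 8 at 24 h and 0 to 6 at 48 h, and for the 3 differences in a change from 0 to 2, 0 to 3 and 0 to 3. From 0 h to 24 h in control cells, leaving out single libraries moved the change of *Slamf1* between -0.51 and 0.097, turned by control replicate 1 of 0 h, and that of *Cd86* between -0.82 and 0.031, turned by replicate 3. From 24 h to 48 h in B-CKO cells it moved *Cd83* between -0.066 and 0.022, turned by replicate 1 of 24 h (0.0034) and replicate 2 of 48 h, and *Tfrc* between -0.099 and 0.092, turned by replicate 3 of 48 h. Median ratio scaling gave 0.0069 for *Cd83* and 0.0014 for *Tfrc* there. None of these 4 main values was called, and the members' other changes over time kept their sign under each of these settings, as did the genotype differences given singly at 24 h and 48 h. The small genotype differences at 0 h did not, except that of *Cd80*.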
